A study of Homo sapiens with 18 samples.

Results

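CXC chemokines and CX3CL1 are small secreted or membrane-bound proteins that draw leukocytes to a tissue, and 10 of their genes (CXCL1, CXCL2, CXCL3, CXCL5, CXCL6, CXCL8, CXCL10, CXCL11, CXCL16 and CX3CL1) were taken by symbol from the 62754 genes of an endothelial RNA sequencing experiment. The experiment has 6 conditions with 3 libraries each, 18 in all. EA.hy926 is a permanent human line made by fusing umbilical vein endothelial cells with the lung carcinoma line A549, so every library comes from 1 hybrid line. Cells were given transfection reagent alone (Mock), 10 nM of a control siRNA that targets no gene (siNT), or 10 nM of a pool of siRNAs against ELMO1 (siELMO1). ELMO1 encodes an adaptor protein that works with DOCK proteins to activate the GTPase Rac1. RNA was taken before stimulation (0 h) and 24 h after poly(I:C) at 1 μg/ml, a synthetic double-stranded RNA that is sensed by TLR3. No 24 h libraries without poly(I:C) are among the 6 conditions, so the stimulus and the added time cannot be told apart in any comparison of 24 h with 0 h. The study's methods call the libraries of a condition biological replicates. The labels do not say whether they came from separate cultures, and the p-values measure the spread between these libraries.

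Chemokines of the CXC family carry a pair of cysteines separated by 1 residue, and CX3CL1 carries the same pair separated by 3. Those with the tripeptide Glu-Leu-Arg (ELR) just before the first cysteine are ligands of CXCR1 and CXCR2 and mainly attract neutrophils. CXCL10 and CXCL11 lack it, are classical interferon-inducible genes and attract activated T cells and NK cells through CXCR3. CXCL16, ligand of CXCR6, and CX3CL1 (fractalkine), ligand of CX3CR1, are made as membrane-anchored proteins with a chemokine head on a mucin-like stalk, from which ADAM10 and ADAM17 release a soluble form. In endothelial cells NF-κB is a well known inducer of ELR+ genes.

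The feature that separates the groups can be read in the coding sequence. Each line shows coding bases of the member's transcript in GENCODE v44 (GRCh38), from 6 codons before the first cysteine of the motif to 1 codon after the second, with the 3 codons just before that cysteine in capitals.
CXCL1 (chr4:73869677-73869706, plus strand): gtggccactGAACTGCGCtgccagtgcttg
CXCL2 (chr4:74098885-74098914, minus strand): ctggccactGAACTGCGCtgccagtgcttg
CXCL3 (chr4:74038376-74038405, minus strand): gtggtcactGAACTGCGCtgccagtgcttg
CXCL5 (chr4:73998292-73998321, minus strand): gtgttgagaGAGCTGCGTtgcgtttgttta
CXCL6 (chr4:73836981-73837010, plus strand): gtgctgacaGAGCTGCGTtgcacttgttta
CXCL8 (chr4:73741559-73741588, plus strand): agtgctaaaGAACTTAGAtgtcagtgcata
CXCL10 (chr4:76022780-76022809, minus strand): ctctctagaACTGTACGCtgtacctgcatc
CXCL11 (chr4:76035305-76035334, minus strand): atgttcaaaAGAGGACGCtgtctttgcata
CXCL16 (chr17:4738877-4738906, minus strand): ggcagcgtcACTGGAAGTtgttattgtggt
CX3CL1 (chr16:57379639-57379674, plus strand): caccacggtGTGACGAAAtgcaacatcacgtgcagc

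The capitals spelled ELR in CXCL1, CXCL2, CXCL3, CXCL5, CXCL6 and CXCL8, and in none of the other 4. All 6 ELR+ genes lie within 359 kb of chromosome 4, at 73740519 to 74099196. CXCL10 and CXCL11 lie on the same chromosome, 1922 kb beyond that cluster, within 20.3 kb of each other. CXCL16 is on chromosome 17 (4733533 to 4739928) and CX3CL1 on chromosome 16 (57372477 to 57385044). CXCL1, CXCL2 and CXCL3 have 107 codons each, and their coding bases were 93.5% (CXCL1 and CXCL2), 90.7% (CXCL1 and CXCL3) and 94.4% (CXCL2 and CXCL3) identical. CXCL5 and CXCL6 were 87.5% identical, CXCL10 and CXCL11 53.3%. How the authors' counting split reads between such near copies is not given in the sources used here, so the separate values of CXCL1, CXCL2 and CXCL3 carry that uncertainty. CXCL10 and CXCL11 overlap ART3, and CXCL16 overlaps MED11 and ZMYND15, in each case on the opposite strand. CXCL11 also overlaps RPL36P8 and CXCL6 overlaps PPBPP1 on the same strand, and CXCL5 overlaps a gene without a symbol on the opposite one. The libraries were stranded, but whether the counting used strand is not stated.

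Promoter sequences (RefSeq, GRCh38.p14, 250 bases before to 50 after the start site) were at hand for 8 of the 10 members, without CXCL16 and CX3CL1. They were searched on both strands for GGNNNTTCC, a letter pattern of NF-κB sites, for GAAANNGAAA, the core of interferon-stimulated response elements (ISRE), and for the AP-1 pattern TGACTCA, counting matches at the same position on both strands once. The first pattern was found in 8 of 8, against 20.1% of all 35116 promoters in the table. It is shown in capitals, with the neighbouring bases upstream of the start site.
CXCL1 (chr4:73869303-73869360, plus strand): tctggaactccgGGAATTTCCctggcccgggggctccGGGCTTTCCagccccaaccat
CXCL2 (chr4:74099228-74099284, minus strand): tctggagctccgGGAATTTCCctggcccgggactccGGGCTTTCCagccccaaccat
CXCL5 (chr4:73998747-73998779, minus strand): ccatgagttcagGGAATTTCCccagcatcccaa
CXCL6 (chr4:73836577-73836609, plus strand): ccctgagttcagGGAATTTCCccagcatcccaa
CXCL8 (chr4:73740466-73740498, plus strand): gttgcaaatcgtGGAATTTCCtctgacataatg
CXCL10 (chr4:76023587-76023685, minus strand): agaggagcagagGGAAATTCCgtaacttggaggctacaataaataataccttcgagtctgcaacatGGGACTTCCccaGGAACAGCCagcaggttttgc
CXCL11 (chr4:76036125-76036157, minus strand): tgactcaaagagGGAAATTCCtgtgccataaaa

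CXCL1 and CXCL2 each held 2 matches, the first at -78 and -77 and the second at -53 in both, counted as the first base of the match from the start site. CXCL3 held 2 as well, at -78 and -53, in bases that are part of an annotated exon and are not shown. CXCL5, CXCL6 and CXCL8 shared the letters GGAATTTCC at -90, -89 and -91. The ISRE core was found in CXCL10 alone of the 8, at -221, and in 3.57% of all promoters. It is shown with the neighbouring bases.
CXCL10 (chr4:76023694-76023728, minus strand): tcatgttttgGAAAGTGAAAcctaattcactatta

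The AP-1 pattern was found in CXCL8 (at -137) and CXCL11 (at -87), and in 4.95% of all promoters. These are letter matches in a short window, and binding was not measured.

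The deposited values are estimated counts per gene, given here relative to the library total as CPM and scaled with TMM factors. Library totals ran from 40.4 to 73.9 M. Where no count was recorded, a level of 3 counts remains possible, equal to 0.0383 CPM in the deepest and 0.0752 CPM in the shallowest library. These limits cover counting error only, and a count may stand for less than 1 read pair. ELMO1 stood at 2.98 to 3.04 CPM in Mock, 2.66 to 3.32 in siNT and 0.299 to 0.419 in siELMO1 at 0 h, and at 1.52 to 2.98, 2.98 to 3.58 and 0.155 to 0.359 at 24 h, so that siELMO1 did not overlap with either control (log2 -3.11 against siNT at 0 h and -3.64 at 24 h). Replicate 1 of siELMO1 at 0 h stood apart from its partners: the chi-square per gene was 70.9 and 79.1 against them and 10.2 to 29.2 between the libraries of every other pair, its total was 71.1 M against 40.4 and 51.0 M, and mitochondrial genes took 1.86% of its counts against 4.02% and 3.95%. Results at 0 h that change without it are given both ways. Of 10 endothelial markers 9 passed the filter on low values (CLDN5 was at 0 to 14 counts), of 9 lung epithelial markers 4, and CDH1 was at 0 in every library. These values are for bulk RNA, in which fewer cells of a type and less RNA per cell cannot be told apart.

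Of the 10 members 7 passed the filter, which asked for 100 counts over all libraries and for 1 CPM in the highest one, and are among the 15167 genes tested. CXCL5, CXCL6 and CX3CL1 did not. CXCL5, a neutrophil attractant also known as ENA-78, was at 0 counts in all 9 libraries of 0 h, and at 24 h it had 3, 0 and 3 counts in Mock, 0, 0 and 6 in siNT, and 5, 6 and 19 in siELMO1. CXCL6, its near copy, was at 0 in 17 of 18 libraries and at 3 counts in siNT replicate 3 at 0 h. CX3CL1 was at 0 at 0 h, and at 24 h had 0, 0 and 8 counts in Mock, 0 in all 3 siNT libraries, and 5, 11 and 11 in siELMO1. The 3 siELMO1 libraries at 24 h were the only condition in which CXCL5 and CX3CL1 exceeded 3 counts in every library, by margins that this depth does not resolve. With the filter on low values removed, the edgeR test was run on these 3 genes in all 12 comparisons, and 0 of the 36 tests passed; 4 had an unadjusted p under 0.05, and the smallest adjusted p was 0.056, for the CXCL5 response in siELMO1. The fitted fold changes of these genes rest on conditions at 0 and are not given.

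On the length-corrected TPM scale, which allows levels of different genes to be compared, CXCL8 (interleukin-8) stood first in each condition at 24 h, at 1602 ± 77.6 TPM in Mock, 332 ± 36.5 in siNT and 816 ± 78.5 in siELMO1 (SD, n = 3). CXCL2 (270 ± 13.6 TPM) and CXCL1 (244 ± 29.0) followed in Mock, where their ranges (262 to 286 and 213 to 270) overlapped. CXCL11 (113 ± 21.1) and CXCL3 (95.4 ± 11.4) came next, also with overlapping ranges (93.5 to 135 and 85.4 to 108), then CXCL10 (56.1 ± 10.8) and CXCL16 (2.47 ± 0.434). In siNT CXCL1 moved from the third to the fifth place, at 14.8 ± 1.29 TPM beside 53.7 ± 4.57 for CXCL2, and their ranges no longer overlapped. The other neighbours there, CXCL11 (22.7 ± 8.06 TPM), CXCL3 (18.0 ± 2.99), CXCL1 and CXCL10 (14.7 ± 2.62), overlapped in order. In siELMO1 it stood second, at 238 ± 47.2 TPM against 148 ± 23.3 for CXCL2, again without overlap (202 to 292 and 129 to 174), while the ranges of CXCL11 (65.0 to 107), CXCL10 (46.1 to 81.6) and CXCL3 (39.8 to 62.5) overlapped from each to the next.

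**Figure D1:**
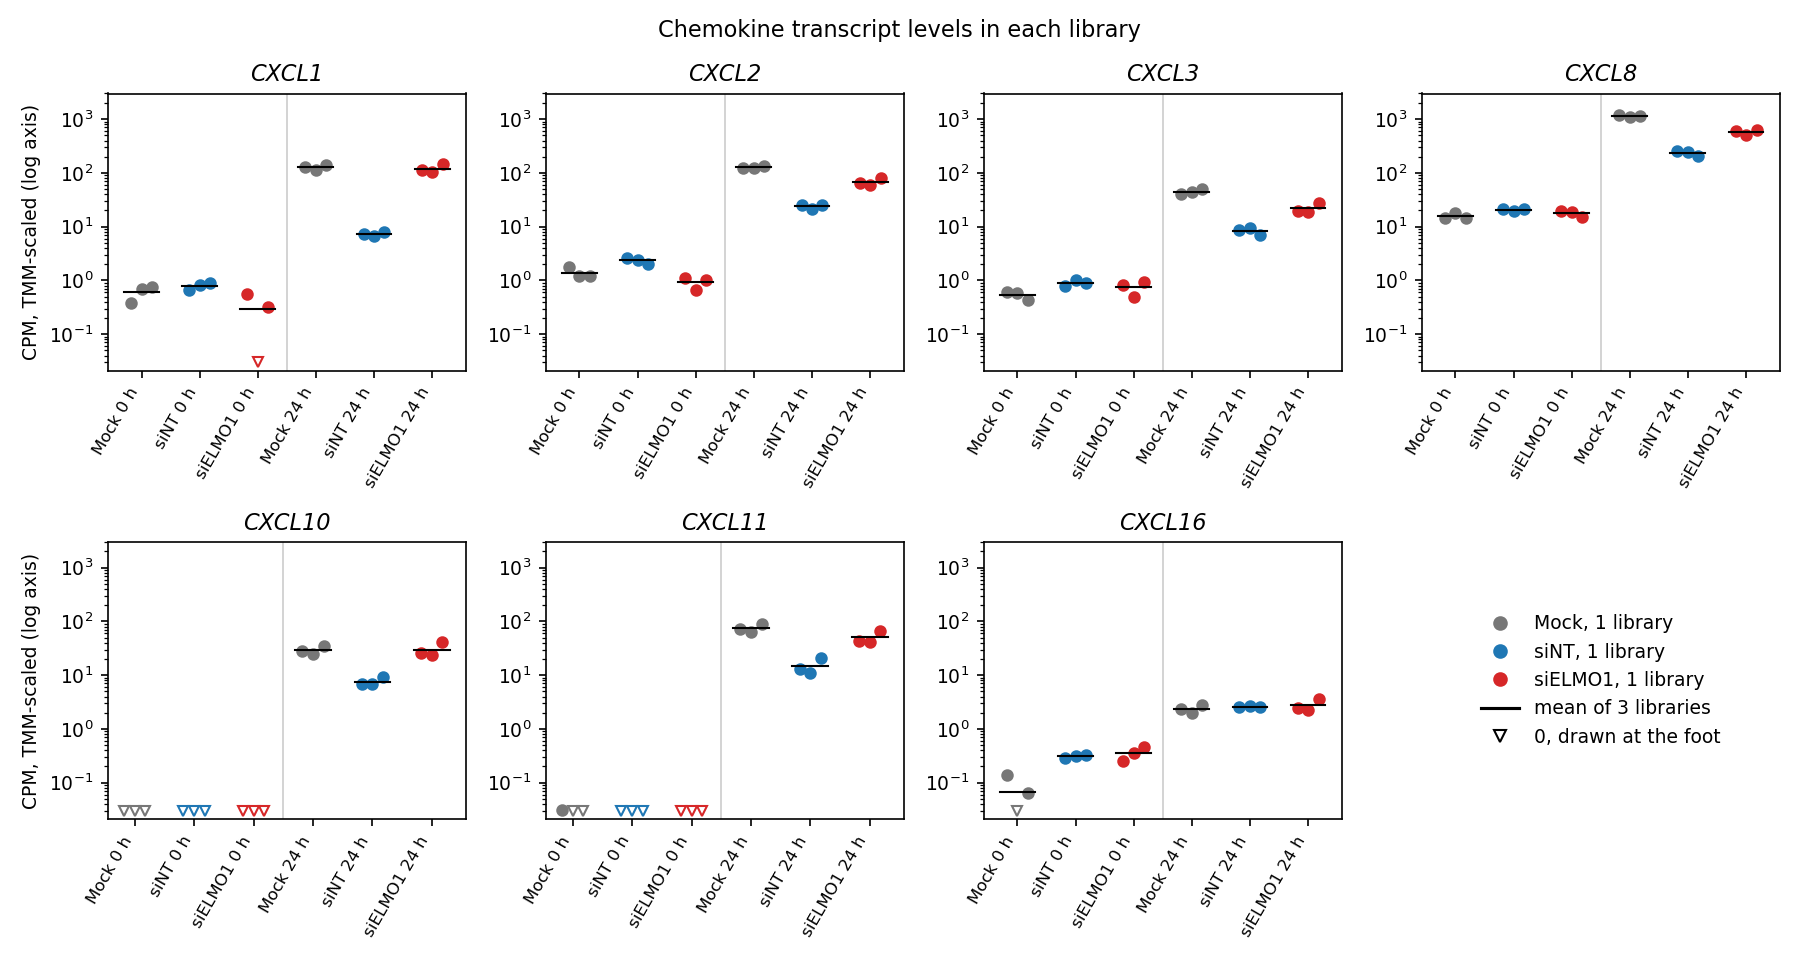
Levels of the 7 members that passed the filter, in TMM-scaled CPM on a log axis, for each of the 18 libraries (points), with the mean of 3 libraries as a line; triangles mark a value of 0. In 6 panels the siNT libraries at 24 h lie below both other conditions of that time, and in the CXCL16 panel they lie among them.

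Poly(I:C) was followed by higher levels of each of the 7 members in each transfection, ELR+ or not. In Mock, 7 were higher and 0 lower, beside 30.7% of all genes called higher and 29.6% called lower. In siNT the counts were again 7 and 0, beside 28.6% and 25.2%, and in siELMO1 7 and 0, beside 28% and 26.9%. CXCL1, CXCL10, CXCL11 and CXCL16 stayed under the filter's 1 CPM in every 0 h library and passed it through 24 h libraries alone. Being tested thus required a high 24 h level for these genes, and their calls cannot be weighed against the shares of all genes. These counts and all others are calls at an adjusted p under 0.05 in the edgeR model of all 18 libraries.

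CXCL8 went from 14.5, 18.1 and 14.4 CPM at 0 h to 1200.5, 1114, and 1137 CPM at 24 h in Mock, a 73.3-fold rise (log2 6.20 ± 0.13, adjusted p = 6e-17). In siNT it went from 20.9, 19.7 and 21.5 CPM to 260, 243 and 207, 11.4-fold (log2 3.52 ± 0.11), and in siELMO1 from 19.4, 18.7 and 15.4 to 614, 511 and 640, 32.9-fold (log2 5.04 ± 0.12). It was the member with the highest level at 0 h and the only ELR+ gene above 3 CPM there. Here and below, the value after ± on a log2 fold change is its size divided by the square root of the edgeR F statistic. The intervals of fold changes were built from this value. Both therefore restate the test and are approximate, not separately estimated standard errors.

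CXCL1 (GRO-alpha) was far lower at 0 h, at 0.382, 0.702 and 0.766 CPM in Mock, 0.657, 0.805 and 0.897 in siNT, and 0.571, 0 and 0.319 in siELMO1. At 24 h it reached 128, 112 and 140 CPM in Mock (201-fold, log2 7.65 ± 0.26) but 7.27, 6.84 and 7.99 in siNT (9.36-fold, log2 3.23 ± 0.27), and 112, 103 and 145 in siELMO1 (342-fold, log2 8.42 ± 0.29). The Mock and siELMO1 libraries overlapped at 24 h, and the siNT libraries lay more than 10-fold below both.

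CXCL2 (GRO-beta) rose 92.5-fold in Mock, from 1.79, 1.19 and 1.21 CPM to 123, 126 and 135. In siNT it rose 10.3-fold, from 2.63, 2.40 and 2.06 to 25.6, 21.7 and 25.6, and in siELMO1 70.5-fold, from 1.10, 0.677 and 0.997 to 65.1, 58.8 and 79.1. Its near copy CXCL3 (GRO-gamma) rose 81.6-fold in Mock, from 0.611, 0.581 and 0.434 CPM to 39.7, 43.3 and 49.3. For CXCL3 the rise was 9.41-fold in siNT, to 8.72, 9.49 and 6.96 CPM, and 28.5-fold in siELMO1, to 19.6, 19.0 and 27.3. At 24 h the 3 conditions did not overlap for either gene, in the order Mock, siELMO1, siNT.

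CXCL10 was at 0 counts in all 9 libraries of 0 h, and CXCL11 in 8 of 9, with 2 counts in Mock replicate 1. Their rise can therefore be given as a lower bound only, against 3 counts in each library of 0 h. CXCL10 (IP-10) was at 28.5, 24.3 and 34.9 CPM at 24 h in Mock, at least 704-fold higher, at 6.95, 6.75 and 9.07 in siNT, at least 164-fold, and at 25.4, 23.5 and 40.9 in siELMO1, at least 511-fold. CXCL11 (I-TAC) was at 71.9, 62.6 and 88.5 CPM in Mock, at least 1789-fold higher, at 12.9, 10.8 and 20.5 in siNT, at least 319-fold, and at 43.8, 41.8 and 67.2 in siELMO1, at least 869-fold. The difference of responses between transfections cannot be estimated for these 2 genes, whose level at 0 h was not detectable at this depth, and is not given.

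CXCL16 behaved otherwise. At 0 h it was at 0.137, 0 and 0.0639 CPM in Mock (9, 0 and 5 counts), at 0.284, 0.312 and 0.329 in siNT and at 0.258, 0.351 and 0.459 in siELMO1. At 24 h it was at 2.30, 1.95 and 2.79 CPM in Mock, 2.56, 2.68 and 2.55 in siNT, and 2.4996, 2.24 and 3.65 in siELMO1. The 3 conditions overlapped at 24 h and both siRNA conditions lay above every Mock library at 0 h, so that the rise was 35.0-fold in Mock (log2 5.13 ± 0.49), 8.38-fold in siNT (log2 3.07 ± 0.42) and 7.90-fold in siELMO1 (log2 2.98 ± 0.42).

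**Figure D2:**
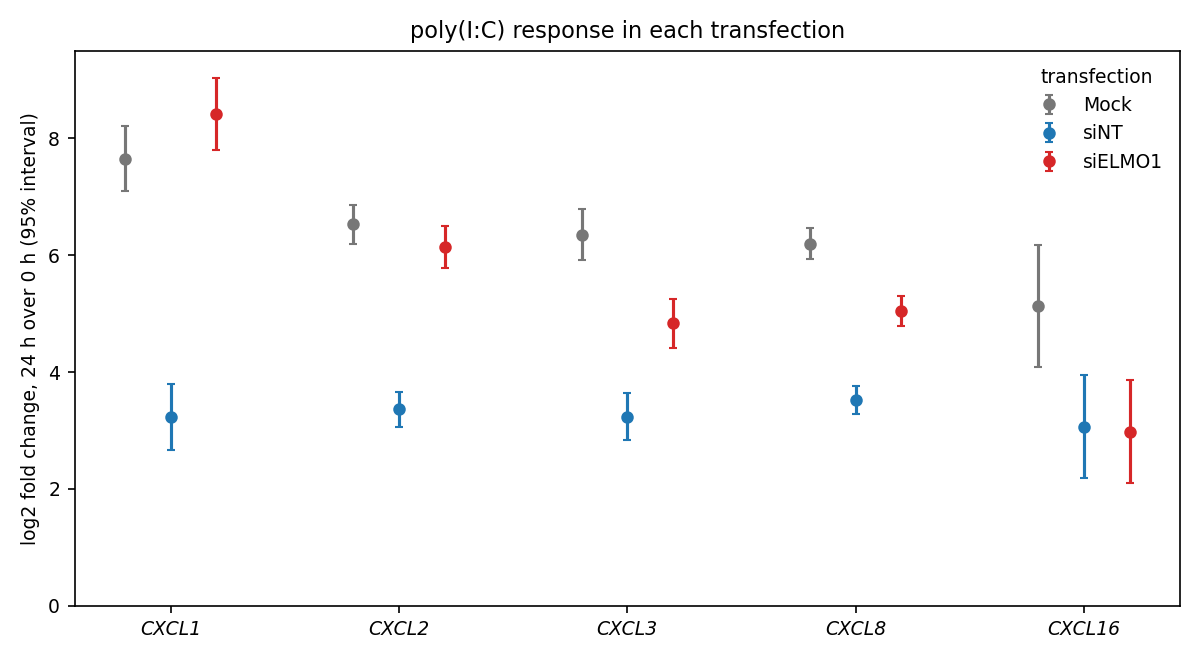
Log2 fold change of 24 h over 0 h with its 95% interval in each transfection, for the 5 members with counts in each condition at 0 h. CXCL1 in siELMO1 (42, 0 and 16 counts) and CXCL16 in Mock (9, 0 and 5 counts) include a library without counts at 0 h. For CXCL1, CXCL2, CXCL3 and CXCL8 the siNT point is the lowest of 3; for CXCL16 the siNT and siELMO1 points lie together below Mock.

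The differences of these responses were tested as interactions. From Mock to siNT the response was smaller for 5 members and larger for 0, beside 16% of all genes with a smaller and 15% with a larger response. The 5 were CXCL1 (log2 difference -4.43 ± 0.43, adjusted p = 7e-07), CXCL2 (-3.17 ± 0.21), CXCL3 (-3.12 ± 0.28), CXCL8 (-2.68 ± 0.15) and CXCL16 (-2.06 ± 0.64, adjusted p = 0.021). The CXCL16 call rests on 9, 0 and 5 counts at 0 h in Mock, and without Mock replicate 3 at 0 h its difference was -2.02 with an adjusted p of 0.051.

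From siNT to siELMO1 the response was larger for 4 members and smaller for 0, beside 16.7% and 17.8% of all genes. CXCL1 differed by 5.19 ± 0.48, CXCL2 by 2.78 ± 0.23, CXCL3 by 1.60 ± 0.28 and CXCL8 by 1.53 ± 0.15 on the log2 scale. The size of the CXCL1 value rests in part on 42, 0 and 16 counts at 0 h in siELMO1. At 24 h alone siELMO1 and siNT differed by 4.02 for CXCL1. For CXCL16 the difference was -0.08, with a 95% interval from -1.28 to 1.11.

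Against Mock, the siELMO1 response was smaller for 3 members, CXCL3 (-1.52 ± 0.29), CXCL8 (-1.15 ± 0.15) and CXCL16 (-2.15 ± 0.65), and larger for 0, beside 14.6% and 13.8% of all genes. CXCL1 (0.76, 95% interval -0.27 to 1.80) and CXCL2 (-0.39, -0.90 to 0.12) did not pass. Without siELMO1 replicate 1 at 0 h the CXCL1 difference was 1.73 (adjusted p = 0.043), and without replicate 3 that of CXCL16 was -1.91 (adjusted p = 0.052).

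The comparisons between transfections at 24 h follow from the library values given above. In siNT 6 members were lower than in Mock and 0 higher, beside 24.9% and 25.2% of all genes. CXCL1 was 17.2-fold lower (log2 -4.10 ± 0.21, adjusted p = 1.2e-10). The others were lower by 5.28-fold (CXCL2), 5.26-fold (CXCL3), 5.03-fold (CXCL11), 4.86-fold (CXCL8) and 3.85-fold (CXCL10). CXCL16 differed by 0.15 on the log2 scale, with a 95% interval from -0.63 to 0.92.

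In siELMO1 the same 6 members were higher than in siNT and 0 lower, beside 26% and 26.5% of all genes. CXCL1 was 16.3-fold higher (log2 4.02 ± 0.20, adjusted p = 7.9e-11), CXCL10 3.94-fold (1.98 ± 0.22) and CXCL11 3.44-fold (1.78 ± 0.23). The other 3 ELR+ genes were 2.79-fold (CXCL2), 2.61-fold (CXCL3) and 2.49-fold (CXCL8) higher. CXCL16 differed by 0.10, with an interval from -0.66 to 0.87. The siNT libraries serve in both of these comparisons, which are therefore not independent of each other.

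The contrast of siELMO1 with Mock leaves the siNT libraries aside. CXCL2 (1.90-fold), CXCL3 (2.01-fold) and CXCL8 (1.96-fold) were lower in siELMO1 with no overlap of libraries, and 0 members were higher, beside 22% of all genes lower and 21.6% higher. CXCL1 (log2 -0.08, 95% interval -0.44 to 0.29) and CXCL10 (0.03, -0.42 to 0.48) did not pass the test, and nor did CXCL16 (0.25, -0.52 to 1.02). CXCL11 was at -0.55 (-1.02 to -0.07) with an adjusted p of 0.061, and it passed in 4 of the alternative fits, among them the one without siELMO1 replicate 3 at 24 h (-0.80, adjusted p = 0.012). Of the 4 ELR+ genes tested, 3 were thus lower and CXCL1 did not pass; a difference between genes was not tested.

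**Figure D3:**
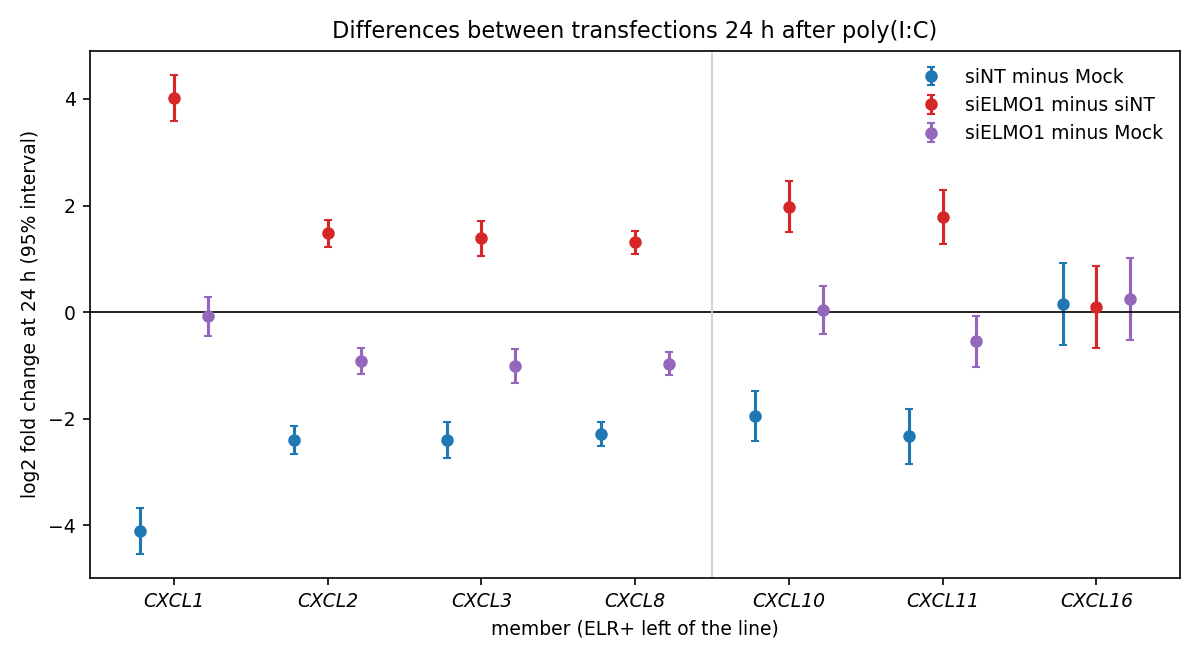
Log2 fold changes between transfections at 24 h with 95% intervals, for the ELR+ members left of the line and the others right of it. CXCL1 has the widest excursions (-4.10 and 4.02), CXCL16 stays around 0, and siELMO1 minus Mock lies below 0 for CXCL2, CXCL3 and CXCL8.

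CXCL1 and CXCL8 were also set side by side within single libraries, where no scaling between libraries enters. For each 100 counts of CXCL8 there were 10.6, 10.1 and 12.3 counts of CXCL1 in Mock at 24 h, 2.80, 2.81 and 3.86 in siNT, and 18.2, 20.1 and 22.7 in siELMO1, with no overlap between conditions. CXCL2 kept to 8.91 to 12.4 counts per 100 of CXCL8 over all 9 libraries and CXCL3 to 3.19 to 4.34, with overlapping conditions. At 0 h the CXCL1 ratio was 2.63 to 5.31 in Mock and 3.15 to 4.18 in siNT, so in siNT the ranges before and after poly(I:C) overlapped. This ratio was chosen after the values were seen and is given as a description, with no test. CXCL8 made up 77.8 to 80.5% of the ELR+ counts of Mock, 83.6 to 86.5% of siNT and 71.7 to 75.8% of siELMO1.

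**Figure D4:**
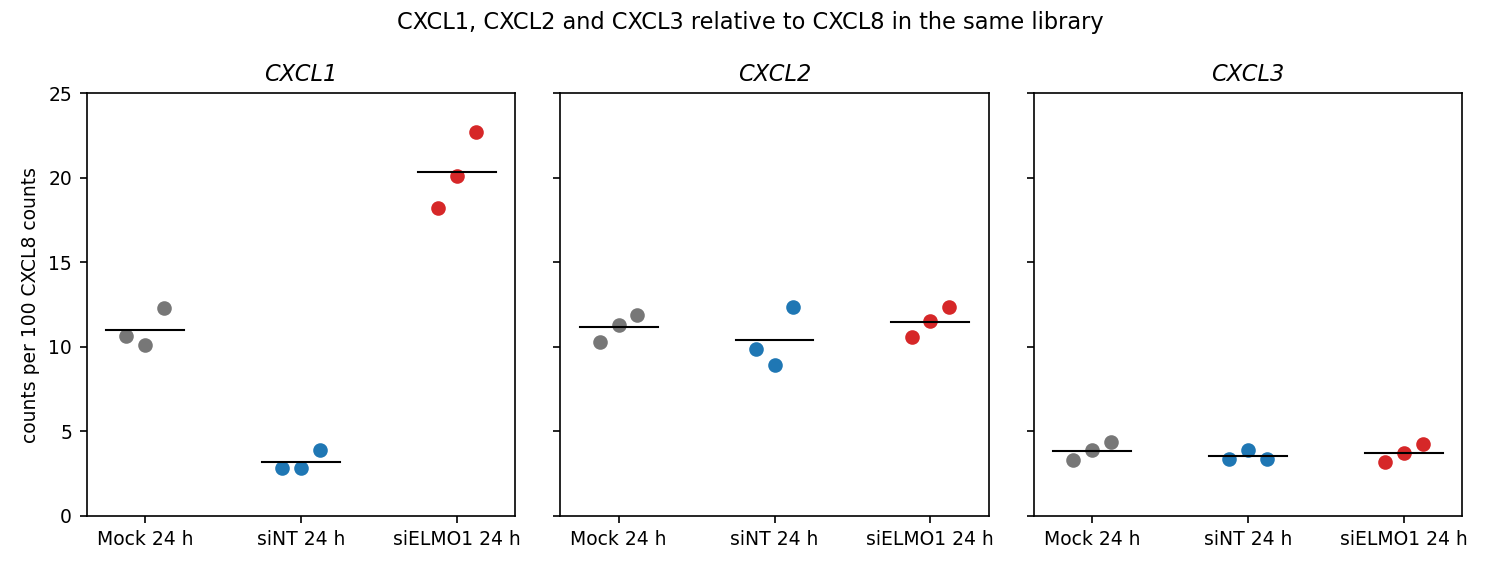
Counts of CXCL1, CXCL2 and CXCL3 per 100 counts of CXCL8 in each library at 24 h (points), with the mean of 3 libraries as a line. The CXCL1 panel separates the conditions, at 2.80 to 3.86 in siNT, 10.1 to 12.3 in Mock and 18.2 to 22.7 in siELMO1; the other panels do not.

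ELR+ genes as a sum were set against CXCL10 plus CXCL11 in the same library. In Mock there were 14.9, 16.1 and 11.8 ELR+ counts for each count of the pair, in siNT 15.2, 16.0 and 8.36, and in siELMO1 11.7, 10.6 and 8.26. The siNT libraries overlapped with both others, and every siELMO1 library lay below every Mock library. The mean log2 balance was 3.82 ± 0.23 in Mock, 3.66 ± 0.52 in siNT and 3.33 ± 0.26 in siELMO1 (SD, n = 3). The differences were -0.16 (siNT minus Mock, exact permutation p = 0.8), -0.33 (siELMO1 minus siNT, exact p = 0.3) and -0.49 (siELMO1 minus Mock, exact p = 0.1), or 0.8, 0.45 and 0.3 adjusted over the 3 comparisons; the smallest two-sided p that 3 against 3 libraries can give is 0.1. With CXCL8 left out of the sum the siELMO1 minus siNT difference turned to 0.52, and without siNT replicate 3 the siNT minus Mock difference turned to 0.14.

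**Figure D5:**
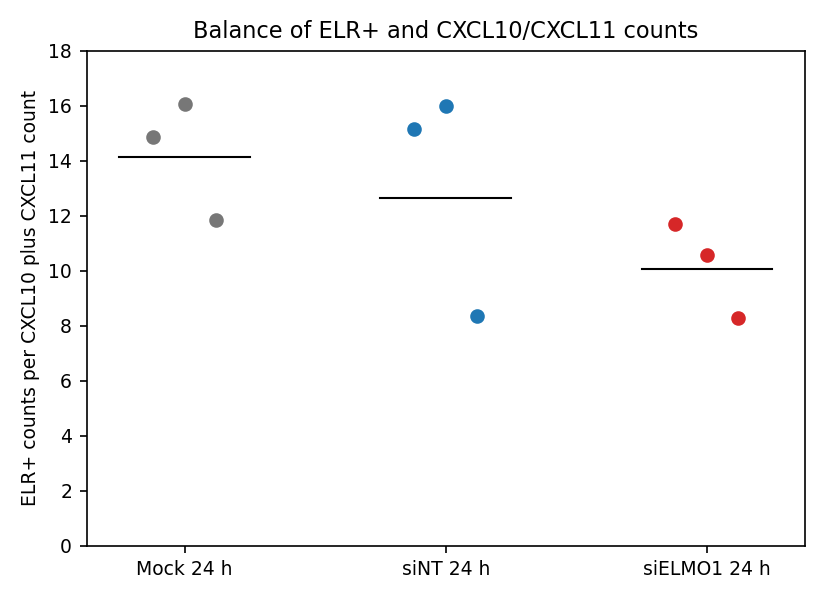
Summed ELR+ counts for each count of CXCL10 plus CXCL11 in each library at 24 h (points), with the geometric mean of 3 libraries as a line. The siELMO1 libraries (8.26 to 11.7) lie below the Mock libraries (11.8 to 16.1), and siNT spans 8.36 to 16.0.

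The transfections were also compared at 0 h, before stimulation. In siNT 4 members were higher than in Mock and 0 lower, beside 27.6% and 24% of all genes, namely CXCL16 (4.62-fold), CXCL2 (1.71-fold), CXCL3 (1.65-fold) and CXCL8 (1.32-fold). Without Mock replicate 3 at 0 h the count fell to 2, as CXCL3 (adjusted p = 0.11) and CXCL8 (adjusted p = 0.053) were lost, and CXCL3 was lost without siNT replicate 2 as well (0.070), with limma-voom (0.23) and with the other conditions left out of the fit (0.071). CXCL1 was at 0.33 on the log2 scale (95% interval -0.46 to 1.11).

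Between siELMO1 and siNT at 0 h, CXCL2 (2.47-fold) and CXCL1 (2.24-fold) were lower in siELMO1 and 0 members higher, beside 31.3% lower and 31.3% higher of all genes. For CXCL2 the siELMO1 libraries (27 to 81 counts) lay below the siNT libraries (138 to 176 counts). CXCL1 had 42, 0 and 16 counts in siELMO1 against 44, 49 and 60 in siNT, and its call was lost without siELMO1 replicate 2 (log2 -0.75, adjusted p = 0.073) or replicate 3 (-1.11, 0.075), and without siNT replicate 2 or 3. The CXCL1 call was also lost with limma-voom (adjusted p = 0.085) and with the other conditions left out of the fit (0.18).

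Between siELMO1 and Mock at 0 h, CXCL16 was higher (5.27-fold) and CXCL2 lower (1.45-fold, adjusted p = 0.044), beside 27.9% higher and 22.4% lower of all genes. For CXCL16 there were 19, 14 and 23 counts in siELMO1 against 9, 0 and 5 in Mock. Its call was lost with the other conditions left out of the fit (adjusted p = 0.061). The CXCL2 call was lost without Mock replicate 1 (adjusted p = 0.19) and without siELMO1 replicate 2 (0.16) or 3 (0.076). Without siELMO1 replicate 2 CXCL3 passed as higher (log2 0.69, adjusted p = 0.034). CXCL1 was at -0.84 (95% interval -1.81 to 0.13), and without siELMO1 replicate 1, the library that stood apart, at -1.81 with an adjusted p of 0.020. The direction of CXCL2 was thus opposite at 0 h and at 24 h, lower in siELMO1 than in siNT before poly(I:C) and higher after it. CXCL1 had the same directions, but its call at 0 h rested on few counts and was lost in several alternative fits.

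In the transcript matrix, CXCL10 and CXCL11 counts at 24 h were all on 1 transcript each. CXCL1-201 held 99.4 to 99.8% of the CXCL1 counts in Mock and siELMO1 at 24 h and 95.01 to 97.7% in siNT. CXCL8-201, the main coding transcript, held 92.3 to 96.8% in Mock and 90.7 to 91.8% in siNT at 24 h. In siELMO1 it held 95.6% and 96.4% in replicates 1 and 2 and 36.9% in replicate 3, although the gene total of that library (640 CPM) was close to those of the others. For CXCL16 the share of CXCL16-201 ran from 0 to 93.8% within siNT at 24 h alone, at 134 to 150 counts a library. These shares are estimates of the authors' transcript assembly, and those of CXCL16 and of the 1 CXCL8 library spread far more than the gene totals.

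Among genes of the same pathway, 8 other CXC ligands (CXCL9, CXCL12, CXCL13, CXCL14, CXCL17, PF4, PF4V1 and PPBP) were examined and 0 passed the filter; CXCL9, the third classical interferon-inducible CXCR3 ligand, was at 0 counts in every library. Of 9 receptors CXCR4 and CXCR6 passed. CXCR6, the receptor of CXCL16, was at 0.214 to 0.524 CPM at 0 h and rose in Mock (log2 1.13, adjusted p = 0.013), siNT (0.94, 0.048) and siELMO1 (1.21, 0.014). It reached the filter's 1 CPM only in replicate 2 of Mock at 24 h (1.16 CPM), a library of a group then called higher. Its counts ran from 13 to 70 a library. CXCR4, the CXCL12 receptor, was at 1.26 ± 0.620 CPM in Mock, 2.85 ± 0.354 in siNT and 5.84 ± 0.989 in siELMO1 at 24 h (SD, n = 3), higher in siELMO1 than in siNT by 1.04 (adjusted p = 0.011) and than in Mock by 2.22 (adjusted p = 3.8e-05). At 0 h CXCR4 already stood at 5.40 CPM in siELMO1, beside 1.79 in siNT and 1.96 in Mock. The edgeR contrast of siELMO1 with siNT at 0 h was 1.59 (adjusted p = 0.00038). Neither CXCR4 nor CXCR6 was called in the siELMO1 minus siNT difference of responses. CXCR1 and CXCR3 were at 0 in every library and CXCR2 at 22 counts or fewer.

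Of 18 transcription factors known to act on such promoters, 16 rose after poly(I:C) in Mock, 16 in siNT and 17 in siELMO1, and 0 fell, beside 30.7%, 28.6% and 28% of all genes called higher. Their response was smaller in siNT than in Mock for 13 and larger for 0, beside 16% and 15% of all genes (median log2 -0.66, beside -0.01 over all genes). It was larger in siELMO1 than in siNT for 6 and smaller for 2, beside 16.7% and 17.8% (median 0.22, beside -0.02). In all, 6 were called in opposite directions in these differences. The genes named here and in the next paragraph were picked by this rule, so their opposite signs follow from the choice. The siNT libraries enter the 2 differences with opposite sign, and the share of all genes called in opposite directions was not counted. Of the 6 factors, by level, FOSL1, an AP-1 subunit, differed by -1.13 and 0.85 and IRF1 by -0.96 and 0.93. NFKBIZ, a nuclear IκB protein that acts on secondary NF-κB targets, differed by -2.54 and 1.80, and NFKB2 by -0.90 and 0.48. On average at 24 h, FOSL1 was lower in siELMO1 than in siNT (275 against 442 CPM), as was NFKB2 (136 against 143). Both were also lower in siELMO1 at 0 h (100 against 289 CPM and 15.7 against 23.2). IRF1 (276 against 229 CPM) and NFKBIZ (186 against 41.4) were higher in siELMO1 at 24 h.

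A list of 8 genes of mRNA decay and stability was taken because chemokine transcripts are short-lived. The response was smaller in siNT than in Mock for 4 and larger for 1, beside 16% and 15% of all genes, and larger in siELMO1 than in siNT for 2 and smaller for 0, beside 16.7% and 17.8%. ZFP36L2, which binds AU-rich elements, differed by -1.71 and 1.47, and ZC3H12A (Regnase-1), an endonuclease of inflammatory transcripts, by -2.69 ± 0.25 and 3.06 ± 0.25. The 7 genes of enzymes that trim or shed chemokines gave 2 larger and 2 smaller responses in siNT than in Mock, and 1 larger and 2 smaller in siELMO1 than in siNT, beside the same 15%, 16%, 16.7% and 17.8% of all genes. ADAM17, the sheddase, was at -0.83 and 0.26, MMP1 at 0.52 and -0.45 and ANPEP at 0.66 and -0.77.

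Markers of other cells moved with some of these results. The summed level of 8 leukocyte markers was 219 to 285 CPM in Mock, 140 to 180 in siNT and 199 to 242 in siELMO1 at 24 h, lowest in siNT as the chemokine levels were, with overlap of Mock and siELMO1; 2 of the 8, CD68 and LYZ, passed the filter. CD68, a lysosomal protein of macrophages that other cells also express, made up nearly all of the sum (247, 152 and 215 CPM on average). LYZ was in another order, at 2.47, 3.08 and 5.72 CPM, and PTPRC, which marks leukocytes, was at 0 to 29 counts. The summed level of the endothelial markers was 1105 to 1356 CPM in Mock, 1371 to 1529 in siNT and 1864 to 2250 in siELMO1 at 24 h, and that of the lung epithelial markers 485 to 495, 533 to 546 and 534 to 628 CPM. KRT8 and KRT18 made up nearly all of the lung epithelial sum (221 and 268 CPM on average in Mock at 24 h). The other lung epithelial markers averaged under 1 CPM in each condition of 24 h. Endothelial markers ran in different orders, given as mean CPM in Mock, siNT and siELMO1 at 24 h. CDH5, the largest part of their sum (505, 520 and 915), TIE1, EGFL7, ESAM and KDR were lowest in Mock and highest in siELMO1. TEK (149, 109 and 161), ERG (73.9, 41.3 and 97.0) and VWF (9.78, 4.61 and 26.9) were lowest in siNT. PECAM1 was highest in siNT (75.8, 230 and 188). The part of all these markers in the chemokine differences was not tested.

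By the root mean square difference of centred log2 CPM over 18 libraries, the genes most like CXCL8 were SOD2 (0.28), the mitochondrial superoxide dismutase, LINC02605 (0.52) and IRF7 (0.52). SOD2 was at 3781 CPM in Mock, 1140 in siNT and 2769 in siELMO1 at 24 h. Those most like CXCL10 were the interferon-stimulated genes RSAD2 (0.64), HSH2D (0.82) and BST2 (0.87), of which RSAD2 was at 358, 110 and 512 CPM at 24 h. Those most like CXCL16 were GBP2 (0.74), CEACAM1 (0.85) and TRANK1 (0.87), and the levels of GBP2 in siNT and siELMO1 at 24 h were 22.1 CPM each, beside 32.8 in Mock. For CX3CL1 they were RASGRF1 (0.84), RAB9B (0.87) and ANGPTL2 (0.87), at a CX3CL1 level of at most 11 counts. The points share the 6 conditions, so this likeness describes the order of the conditions, and with Pearson distance 1 of the 3 named for CXCL8 and 0 of those named for CXCL10, CXCL16 and CX3CL1 remained.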

How the data were processed

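According to the submitters' notes and the paper's methods, the authors used STAR (GRCh38) and StringTie (GENCODE v44) on stranded libraries and deposited gene-level and transcript-level estimated counts, whole numbers that are not normalized; tool versions, the read length used in that step and use of strand are not given in the sources used here. The filter (100 counts over all libraries and 1 CPM in the highest) left 15167 of 62754 genes. One edgeR 4.0.16 quasi-likelihood model with TMM factors (0.958 to 1.06) was fitted to 18 libraries, and 12 two-sided contrasts were adjusted by Benjamini-Hochberg over all genes tested. Members and lists were chosen with earlier results of these data known. Named pathway genes are those called in opposite directions in the differences of responses from Mock to siNT and from siNT to siELMO1, at most 4 per list by level, and every receptor that passed the filter. TPM used transcript counts and annotated lengths. Alternatives were DESeq2 1.42.0, limma-voom 3.58.1, library totals, other filters, fewer libraries and a replicate block. The mean of each condition was subtracted from log2 CPM, and the remainders of same-numbered libraries were correlated. These correlations were over 0.1 in all 3 pairs only for siNT and Mock at 24 h (0.288, 0.335 and 0.250 over 9644 genes). The numbers may pair the libraries there, which the labels do not state. The script was tested on simulated data.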

Additional observations from a re-analysis of the deposited data

Results flagged for a closer look

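The results here were picked out because the poly(I:C) response of a member differed between transfections in the interaction test (adjusted p under 0.05). The siNT minus Mock difference of responses was -4.43 for CXCL1, -3.17 for CXCL2, -3.12 for CXCL3, -2.68 for CXCL8 and -2.06 for CXCL16 on the log2 scale. The siELMO1 minus siNT difference was 5.19 for CXCL1, 2.78 for CXCL2, 1.60 for CXCL3 and 1.53 for CXCL8. The siELMO1 minus Mock difference was -2.15 for CXCL16, -1.52 for CXCL3 and -1.15 for CXCL8. Each pair of these sets shares the libraries of 1 transfection. With 3 libraries a condition, no single library was tested as an outlier.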

How the results depend on the processing

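At 24 h, in the poly(I:C) responses and in their differences, counts of members called stayed within 1.5 times under all alternatives. At 0 h they did not: for siELMO1 against siNT the count of 2 fell to 1 with limma-voom and when other conditions were left out of the fit, and for siELMO1 against Mock from 2 to 1 with limma-voom, without a filter and with filterByExpr, and to 0 when other conditions were left out; the cause was not tested. Leaving out 1 library at a time gave 2 to 4 calls for siNT against Mock at 0 h, 1 to 2 for siELMO1 against siNT and 1 to 3 for siELMO1 against Mock. With the replicate number as a block, 6 members were called as before for siNT against Mock at 24 h, where it may pair libraries. The only call that changed with this block in any comparison was that of CXCL11, siELMO1 against Mock, 24 h (-0.57, adjusted p = 0.00072). Without CXCL8 the balance of siELMO1 minus siNT was 0.52; leaving out 1 library gave -0.33 to 0.14 for siNT minus Mock. Differences near 0 turned sign: for siELMO1 against Mock at 24 h, CXCL10 was at -0.019 with limma-voom and, with 1 library left out, at -0.26 to 0.18 (-0.085 without Mock replicate 2), and CXCL1 at -0.24 to 0.022. CXCL16 in siELMO1 against siNT ran from -0.13 to 0.24 at 24 h, from -0.044 to 0.40 at 0 h, and in the difference of responses from -0.32 to 0.15 (0.053 without siELMO1 replicate 2 at 24 h). Library totals in place of TMM factors moved the median of all genes by -0.12 in the Mock response and changed no call.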
